A study of Mus musculus with 40 samples.

Results

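The 10 transcription factors and nuclear receptors that mark the hepatocyte programme were matched by symbol: Hnf4a, Foxa2, Foxa3, Cebpa, Cebpb, Nr1h4, Ppara, Nr1i2, Nr1i3 and Nr5a2. Of the 10 listed genes, 9 have an entry of their own among the 11119 entries of the expression tables. Nr1i3 appears only in 1 entry joined with its neighbour Tomm40l, so its level cannot be separated from that of Tomm40l. RNA sequencing of mouse liver had been done before partial hepatectomy (PH, the removal of part of the liver) at 0 h and again in the regenerating liver at 48 h and 72 h, with or without an ATR inhibitor (ATRi) given at 24 h. ATR is a kinase that responds to stalled replication. The 40 samples form 9 groups. With ATRi there are 12-month mice at 48 h (3 mice) and 72 h (4 mice) and 3-month mice at 72 h (4 mice). Without ATRi there are 12-month mice at 0 h (8 mice), 48 h (3 mice) and 72 h (4 mice), and 3-month mice at 0 h (7 mice), 48 h (3 mice) and 72 h (4 mice). Strain, sex and genotype are not given in the sources used here. The 4 mice of each 12-month group at 72 h also contribute to the 0 h mean of that age, and so do 2 of the 4 mice of each 3-month group at 72 h.

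Levels are the authors' log2 values of a quantity they call sigma, whose definition and depth are unknown. A level of 1 gene is therefore compared between groups here, never with the level of another gene. For 8 groups only a mean over the mice is used, with no spread, and differences between such means are given by size alone. For the 12-month ATRi group at 72 h the levels of its 4 livers (mice M545, M546, M547 and M548) are also used, and their SD is the only spread between mice. The labels call the cells hepatocytes. Of 12 hepatocyte markers 9 were measured, with Alb (albumin) between 14.65 and 16.01 in all 9 groups. Markers of Kupffer cells and macrophages (9 measured) had a median level between 3.22 and 6.25, and those of neutrophils (7 measured) between 0.22 and 3.54, where the lowest value in the tables is 0.049. Fewer cells of a type and less RNA per cell cannot be told apart in such bulk samples. All 14 measured genes of a proliferation list were higher by 1 or more at 48 h than at 0 h in both untreated ages, with median differences of 3.39 at 12 months and 3.34 at 3 months.

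Hepatocyte identity is held by a network of factors that bind each other's regulatory regions and those of the liver's metabolic genes. HNF4α, the FOXA proteins and the C/EBP proteins open and activate liver enhancers, and C/EBPα restrains growth while C/EBPβ takes part in the acute phase response and regeneration. The nuclear receptors sense small molecules: FXR (Nr1h4) bile acids, PPARα (Ppara) fatty acids, PXR (Nr1i2) and CAR (Nr1i3) foreign compounds. LRH-1 (Nr5a2) binds phospholipids and acts in bile acid synthesis. Many of these receptors pair with RXR, and all depend on coactivators or corepressors.

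The promoters of 4 genes are shown because these genes differed most in the 12-month ATRi livers at 72 h: Nr5a2, Nr1i2 and Foxa2 on the high side and Cebpa on the low side. Each run is the 250 bases before the RefSeq start (GRCm38.p6), 5′ to 3′ on the gene's strand. Capitals mark a match to AGGTCA, the nuclear receptor half-site, on either strand.
Nr5a2 (chr1:136960449-136960698, minus strand): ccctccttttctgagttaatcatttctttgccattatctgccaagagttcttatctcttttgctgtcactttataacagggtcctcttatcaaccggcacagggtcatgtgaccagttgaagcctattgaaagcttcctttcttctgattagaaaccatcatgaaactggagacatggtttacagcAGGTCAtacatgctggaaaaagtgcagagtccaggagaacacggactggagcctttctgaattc
Nr1i2 (chr16:38294825-38295074, minus strand): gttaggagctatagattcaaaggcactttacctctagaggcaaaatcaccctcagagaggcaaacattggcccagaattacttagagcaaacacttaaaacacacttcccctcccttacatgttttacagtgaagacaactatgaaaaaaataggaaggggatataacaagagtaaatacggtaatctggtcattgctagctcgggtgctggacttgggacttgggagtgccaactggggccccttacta
Foxa2 (chr2:148046970-148047219, minus strand): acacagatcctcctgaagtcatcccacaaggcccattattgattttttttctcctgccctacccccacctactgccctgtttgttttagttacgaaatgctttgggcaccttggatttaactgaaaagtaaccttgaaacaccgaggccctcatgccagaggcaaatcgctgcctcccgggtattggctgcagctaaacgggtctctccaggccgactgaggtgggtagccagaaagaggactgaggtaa
Cebpa (chr7:35119043-35119292, plus strand): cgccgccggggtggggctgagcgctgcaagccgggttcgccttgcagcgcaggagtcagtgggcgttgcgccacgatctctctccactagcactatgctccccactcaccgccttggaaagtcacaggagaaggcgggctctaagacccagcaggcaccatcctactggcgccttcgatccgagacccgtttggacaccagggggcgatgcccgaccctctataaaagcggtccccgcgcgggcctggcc
The Nr5a2 promoter holds the half-site 64 bases before the start, and the other 3 hold none. RefSeq gives 14 promoters for the 10 listed genes. AGGTCA lies in 2 of these 14 (Nr5a2 and, 214 bases before its start, Nr1h4), against 14.0% of all 32851 promoters. TTGCNNAA, a C/EBP motif, lies in 1 of the 14, 243 bases before the start in a second Nr5a2 promoter, against 9.56% of all. TGTTTAC, a forkhead motif, and CAAAGTCCA, an HNF4 motif, lie in 0 of the 14, against 3.17% and 0.384% of all, with both strands searched and at most 1 match in a promoter. The GC content of the printed runs is 43.2% for Nr5a2, 44.0% for Nr1i2, 50.8% for Foxa2 and 66.4% for Cebpa. A match describes letters and is no evidence of binding, and a run without one says nothing about a factor.

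Cebpa (ENSMUSG00000034957, chr7:35119293-35121928, plus strand), which encodes C/EBPα, had the widest range of the 9 genes among the 8 group means other than the 12-month ATRi group at 72 h. Cebpa under ATRi stood at 7.88 at 48 h and 6.69 at 72 h in 12-month livers, and at 5.75 at 72 h in 3-month livers. Cebpa without ATRi stood at 8.39, 6.53 and 8.11 at 0, 48 and 72 h in 12-month livers, and at 7.15, 7.72 and 6.004 in 3-month livers. The order of the ages turned round at 48 h: the 12-month mean was above the 3-month mean at 0 h and 72 h and below it at 48 h. The range of those 8 means was 2.64, and 1.44% of all entries had a range as wide or wider, against a median of 0.641. The 4 single livers lay close together at 6.93, 6.75, 6.68 and 6.92 (SD 0.125). Cebpa has a single exon and no intron, and an antisense gene overlaps it. The strand setting of the counting is not given, so reads of the antisense gene cannot be told apart.

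Cebpb (ENSMUSG00000056501, chr2:167688915-167690418, plus strand), also without introns and overlapped by Tmem189 on the other strand, encodes C/EBPβ, a factor of the acute phase. Cebpb under ATRi stood at 6.19 at 48 h and 7.44 at 72 h in 12-month livers, and at 6.47 at 72 h in 3-month livers. Cebpb without ATRi stood at 6.59, 6.36 and 6.86 at 0, 48 and 72 h in 12-month livers, and at 5.96, 5.97 and 6.85 in 3-month livers. The highest mean was that of the 12-month ATRi livers at 72 h. Its 4 livers, at 7.18, 7.61, 7.74 and 7.53 (SD 0.24), were all above the 8 other group means.

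Hnf4a (ENSMUSG00000017950, chr2:163506808-163572910, plus strand) encodes HNF4α, a nuclear receptor on which much hepatocyte transcription depends. Its level was the steadiest of the 9 genes, with 9 group means within 0.518. Hnf4a under ATRi stood at 7.71 at 48 h and 7.66 at 72 h in 12-month livers, and at 8.05 at 72 h in 3-month livers. Hnf4a without ATRi stood at 7.53, 7.96 and 7.58 at 0, 48 and 72 h in 12-month livers, and at 7.67, 7.83 and 7.88 in 3-month livers. The lowest of these was the 12-month liver at 0 h and the highest the 3-month ATRi liver at 72 h. The single livers were at 7.84, 7.68, 7.63 and 7.70 (SD 0.092). The antisense gene Hnf4aos overlaps the gene.

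Foxa2 (ENSMUSG00000037025, chr2:148042877-148046969, minus strand) and Foxa3 (ENSMUSG00000040891, chr7:19013284-19023538, minus strand) encode forkhead pioneer factors that open liver chromatin. Foxa2 under ATRi stood at 2.37 at 48 h and 4.93 at 72 h in 12-month livers, and at 3.29 at 72 h in 3-month livers. Foxa2 without ATRi stood at 3.16, 2.496 and 3.67 at 0, 48 and 72 h in 12-month livers, and at 3.92, 2.79 and 3.13 in 3-month livers. The 48 h means were the lowest at each age, and the 4 single livers, at 5.34, 4.13, 4.82 and 4.95 (SD 0.503), were all above the 8 other group means. Foxa3, by contrast, ranged only from 6.32 to 6.94 over the 9 means. Its 4 livers split into pairs, at 6.99 in M545 and M546 against 6.12 in M547 and 6.14 in M548 (SD 0.495), a gap wider than the range of all 9 group means (0.62).

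Among the nuclear receptors, Nr1h4 (ENSMUSG00000047638, chr10:89454234-89533585, minus strand) encodes FXR, the bile acid receptor. Nr1h4 under ATRi stood at 4.84 at 48 h and 5.65 at 72 h in 12-month livers, and at 5.19 at 72 h in 3-month livers. Nr1h4 without ATRi stood at 5.19, 5.19 and 5.28 at 0, 48 and 72 h in 12-month livers, and at 5.52, 4.84 and 5.67 in 3-month livers. The dip at 48 h appeared in untreated 3-month livers and not in untreated 12-month livers. The single ATRi livers were at 5.23, 5.75, 5.71 and 5.30 (SD 0.269), and 3 of the other 8 group means fall between the lowest and the highest of them.

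Ppara (ENSMUSG00000022383, chr15:85734983-85802819, plus strand) encodes PPARα, the regulator of fatty acid oxidation. Ppara under ATRi stood at 3.24 at 48 h and 4.74 at 72 h in 12-month livers, and at 4.25 at 72 h in 3-month livers. Ppara without ATRi stood at 3.53, 3.59 and 4.38 at 0, 48 and 72 h in 12-month livers, and at 4.503, 3.49 and 4.85 in 3-month livers. Before PH the 12-month mean was lower than the 3-month mean by 0.97, and at 48 h the 2 ages were 0.10 apart. The single ATRi livers were at 4.81, 4.54, 4.74 and 4.32 (SD 0.218).

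Nr1i2 (ENSMUSG00000022809, chr16:38248323-38294824, minus strand) encodes PXR, which induces drug-metabolising enzymes. Nr1i2 under ATRi stood at 3.70 at 48 h and 5.62 at 72 h in 12-month livers, and at 4.07 at 72 h in 3-month livers. Nr1i2 without ATRi stood at 3.52, 4.12 and 4.17 at 0, 48 and 72 h in 12-month livers, and at 3.89, 3.63 and 4.11 in 3-month livers. The 4 single livers, at 6.42, 4.70, 4.82 and 5.20 (SD 0.789), were all above the 8 other means, with M545 well above the rest.

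Nr5a2 (ENSMUSG00000026398, chr1:136842571-136960448, minus strand) encodes LRH-1, a receptor that acts in bile acid and cholesterol metabolism. Nr5a2 under ATRi stood at 1.35 at 48 h and 4.60 at 72 h in 12-month livers, and at 1.80 at 72 h in 3-month livers. Nr5a2 without ATRi stood at 1.29, 1.32 and 2.25 at 0, 48 and 72 h in 12-month livers, and at 1.47, 1.33 and 2.27 in 3-month livers. The untreated means of the 2 ages were within 0.18 of each other at each time. The single livers were at 4.30, 2.68, 4.32 and 5.37, all above the 8 other means, with an SD of 1.11 that 0.89% of all entries reached. The median SD over all entries was 0.233. Foxa2, Cebpb, Nr1i2 and Nr5a2 are thus 4 of 9 genes with all 4 livers above the 8 other means, and 0 of 9 had all 4 below them. Of all entries 15.5% were above and 11.6% below in this way.

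**Figure D1:**
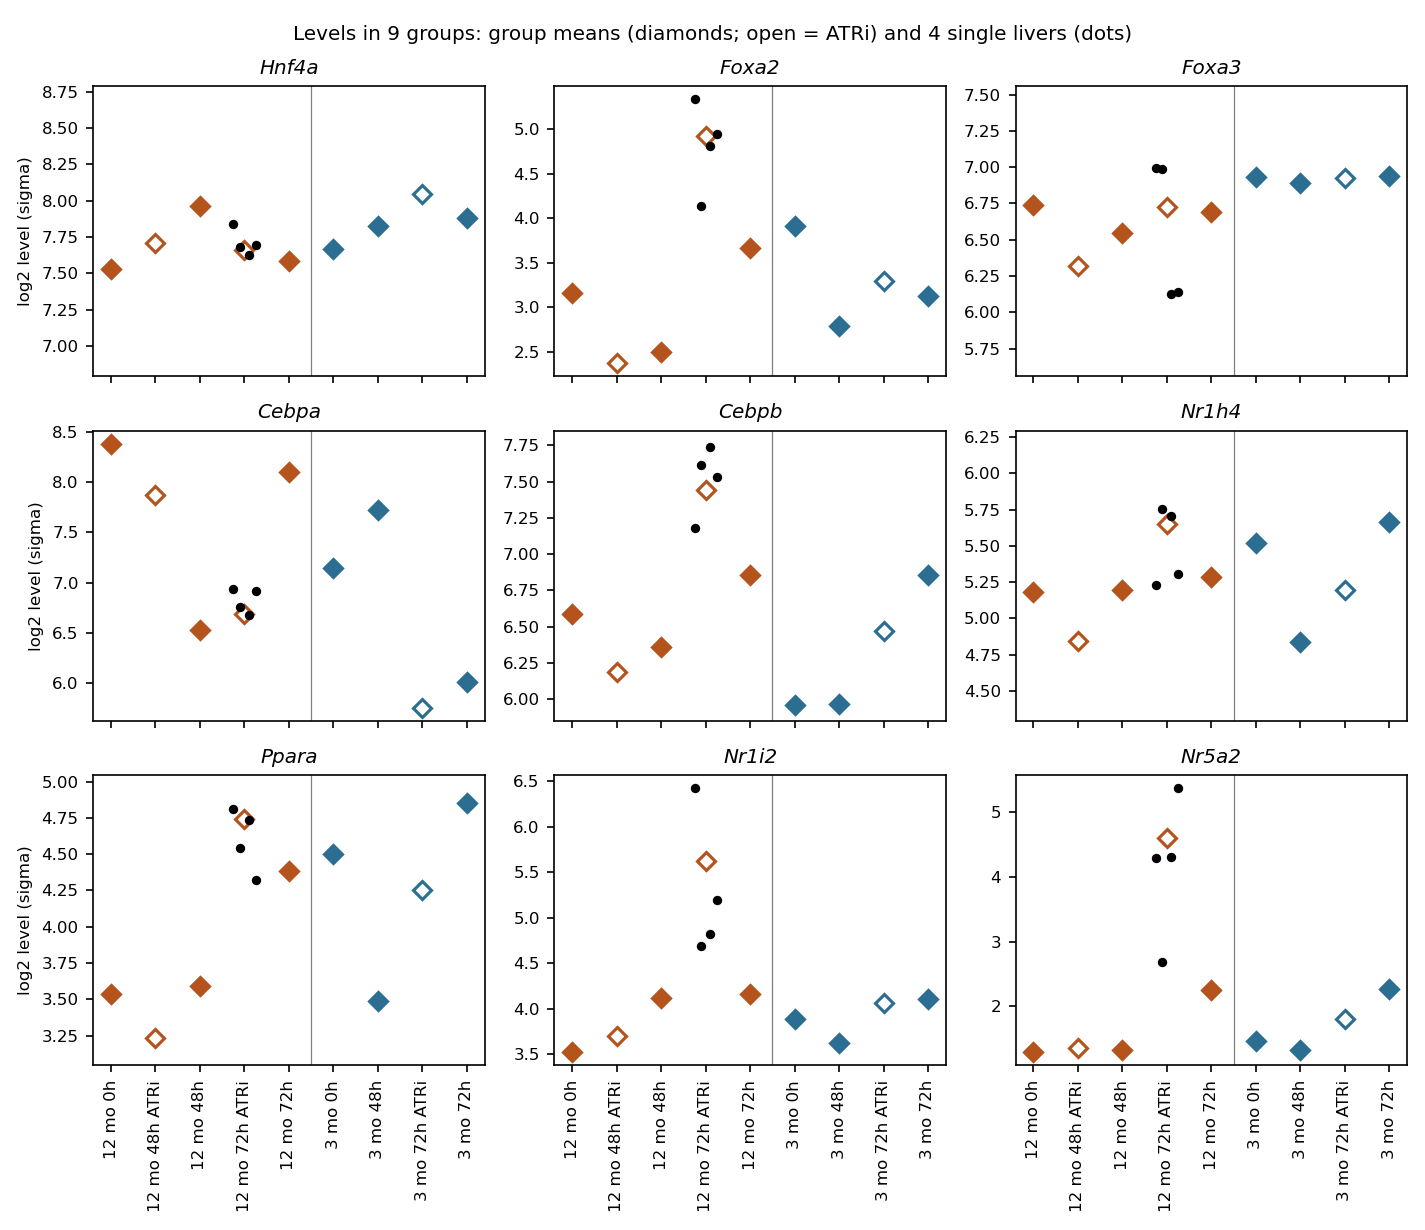
Level of each gene (log2 of sigma, y axis, each panel with its own range of at least 2) in the 9 groups (x axis, mo for months), with group means as diamonds (12 months in brown, 3 months in blue, open for ATRi) and the 4 single livers of the 12-month ATRi group at 72 h as black dots. The 4 dots lie above all 8 other diamonds for Foxa2, Cebpb, Nr1i2 and Nr5a2, and the Cebpa diamonds range from 5.75 to 8.39.

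The entry that joins Nr1i3 with Tomm40l (Nr1i3 encodes CAR, the partner of PXR in sensing drugs) is given as a joined value only. The joined entry under ATRi stood at 7.79 at 48 h and 6.48 at 72 h in 12-month livers, and at 7.42 at 72 h in 3-month livers. The joined entry without ATRi stood at 7.56, 8.46 and 7.13 at 0, 48 and 72 h in 12-month livers, and at 8.48, 7.36 and 7.08 in 3-month livers. Its 48 h mean was the highest of the untreated 12-month series and lay between the other 2 means of the 3-month series. The 4 single livers were at 6.37, 6.73, 6.43 and 6.68, all below the 8 other means, as in 11.6% of all entries. In limma, described below, the joined entry was lower than in untreated 12-month livers at 72 h (−0.655, adjusted p = 0.0434). Of all entries 2.38% were lower there, and 0 passed under some other settings. It was also lower than in 3-month ATRi livers at 72 h, 12-month ATRi livers at 48 h and 12-month livers at 0 h. Adjusted p in limma was 0.00879, 0.00385 and 0.00142, where 9.96%, 17.8% and 22.5% of all entries were lower. How much of this belongs to Nr1i3 was not tested.

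The age comparison asks how 12-month livers differ from 3-month livers at the same time. Before PH, Cebpa was higher by 1.24 at 12 than at 3 months, and it was the only one of the 9 genes to differ by 1 or more, where 1.27% of all entries did. Ppara was lower by 0.97, Foxa2 lower by 0.75 and Cebpb higher by 0.62. At 48 h Cebpa was lower by 1.196 at 12 months, again alone among the 9 (1.36% of all entries), and at 72 h it was higher by 2.10, a 4.30-fold difference of sigma (2.74% of all entries). Cebpa is thus the one gene past a difference of 1 at each time, with its sign turned at 48 h. Markers of neutrophils were higher at 12 months at 0 h (7 of 7, median 1.06) and 72 h (7 of 7, median 1.55), as were those of Kupffer cells and macrophages (9 of 9 at both, medians 0.584 and 0.943). At 48 h macrophage markers were lower at 12 months in 8 of 9 cases (median −0.324) and neutrophil markers in 5 of 7 (median −0.105), so that the sign of these medians turned at 48 h as that of Cebpa did. Their part in the Cebpa differences was not tested.

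Regeneration at 3 months, which has untreated livers at 0, 48 and 72 h, showed Foxa2 lower by 1.13 and Ppara lower by 1.02 at 48 h than at 0 h, 2 of 9 genes where 6.43% of all entries differed by 1 or more. Centring on the median of all entries takes Ppara to −0.926 and leaves Foxa2 alone. At 72 h against 0 h only Cebpa differed by as much, lower by 1.14 (4.49% of all entries), and Cebpb was higher by 0.89. At 72 h against 48 h Cebpa was lower by 1.72 and Ppara higher by 1.37 (4.65% of all entries), with Nr5a2, Cebpb and Nr1h4 higher by 0.94, 0.89 and 0.83. Sinusoidal endothelial markers were lower at 48 h than at 0 h in 11 of 11 cases (median −0.68) and higher at 72 h than at 48 h in 10 of 11 (5 by 1 or more, median 0.922). Their part in these differences was not tested.

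Regeneration at 12 months was compared in the same way. At 48 h against 0 h only Cebpa differed by 1 or more, lower by 1.86, a level 0.276 times that at 0 h (5.12% of all entries differed as much). At 72 h against 0 h none of the 9 did (3.93% of all entries), the largest differences being Nr5a2 higher by 0.96 and Ppara higher by 0.85. Centring on the median difference of all entries (−0.092) takes Nr5a2 to 1.05, past 1. Both groups have a median level of 2.633, so centring each on that level leaves 0.96. At 72 h against 48 h Cebpa was higher by 1.58 and Foxa2 by 1.17 (5.21% of all entries). Nr5a2 was higher by 0.934, which centring on the median difference takes to 1.031. Set side by side, the 48 h difference from 0 h was −1.86 at 12 months and 0.58 at 3 months for Cebpa, and 0.06 and −1.02 for Ppara. These were the 2 genes whose 48 h responses differed by 1 or more between ages, in opposite directions, as 4.26% of all entries did. Centring on the median of all entries takes Ppara below 1 (0.993) and leaves Cebpa alone. These 48 h responses have no spread between mice and were not tested. At 12 months the macrophage markers were lower at 48 h than at 0 h in 9 of 9 cases (median −0.89) and the neutrophil markers in 7 of 7 (median −0.59). At 72 h against 48 h macrophage markers were higher in 9 of 9 cases (8 by 1 or more, median 2.06) and neutrophil markers in 7 of 7 (all 7 by 1 or more, median 1.84). The part of these cells in the differences was not tested.

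**Figure D2:**
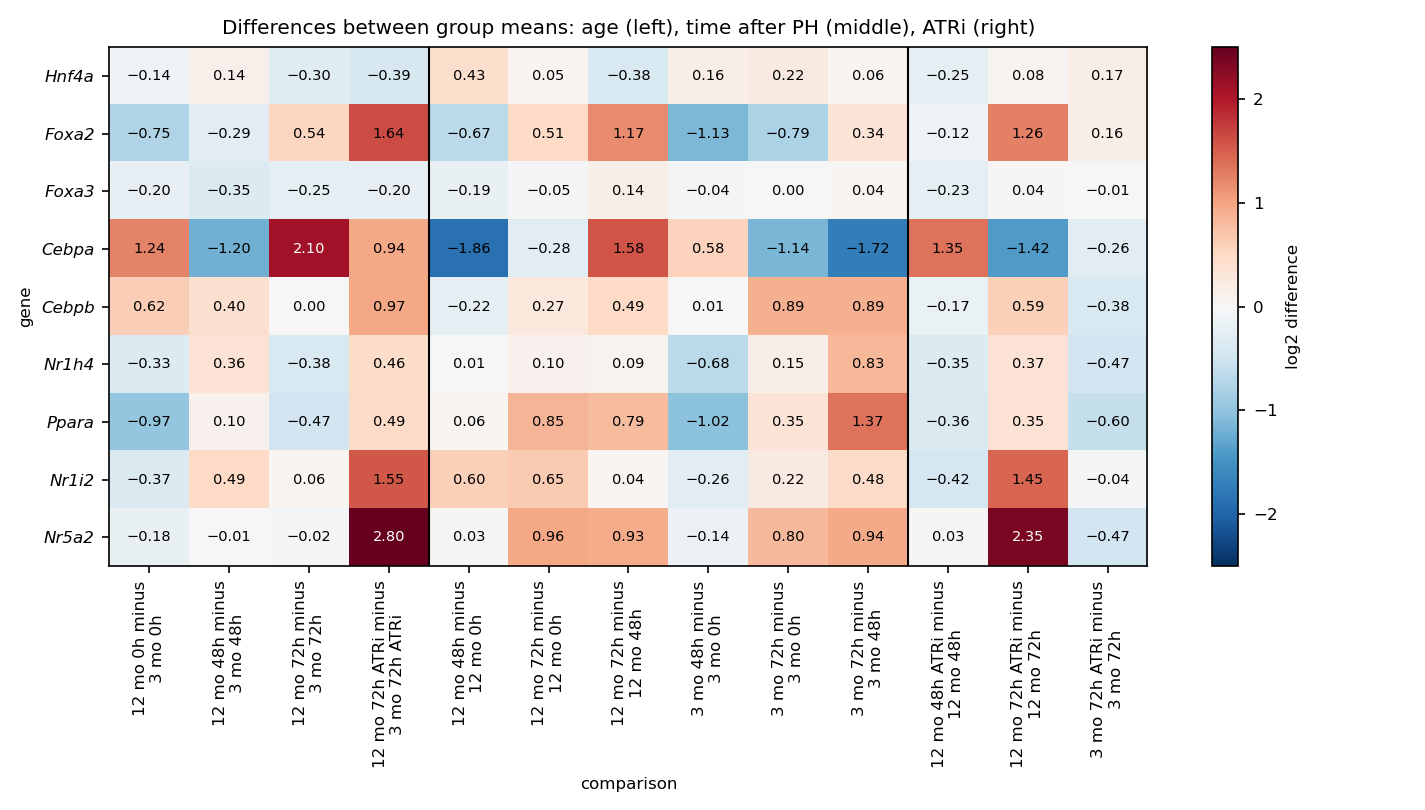
Difference between group means (log2 scale, colour and printed value, red higher and blue lower in the group named first) for the 9 genes (rows) in 13 comparisons (columns) of age, time after PH and ATRi. Cebpa alternates between red and blue, from 2.10 to −1.86, while Hnf4a and Foxa3 stay within 0.43 of 0.

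ATRi at 48 h in 12-month livers, with only means on both sides, left 8 of 9 genes within 0.43 of the untreated mean. Cebpa was the exception, at 7.88 with ATRi and 6.53 without, a difference of 1.35 where 0.576% of all entries differed by 1 or more. In the same comparison 3 of 11 stellate cell and fibroblast markers were higher by 1 or more (Col1a1 at 4.20 with ATRi and 2.85 without, Col1a2 at 3.46 with ATRi and 2.296 without, Col3a1 at 4.46 with ATRi and 3.38 without), where 64 entries differed by as much in all, and their part was not tested. The Cebpa mean under ATRi at 48 h was 0.51 below that at 0 h, and none of the 9 genes differed by 1 or more between these groups (5.2% of all entries). In 3-month livers at 72 h none of the 9 genes differed by 1 or more between ATRi and untreated livers, as 0.18% of all entries did. The largest differences there were lower levels under ATRi, of 0.60 for Ppara, 0.47 for Nr1h4 and 0.47 for Nr5a2. The 3-month ATRi livers at 72 h had Cebpa lower by 1.40 than at 0 h, alone among the 9 (3.51% of all entries).

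ATRi at 72 h in 12-month livers is the comparison with single livers and therefore with a test (limma, two-sided, Benjamini-Hochberg over all 11119 entries, adjusted p under 0.05). Nr5a2 rose by 2.35 (SE 0.556, adjusted p = 0.0472, limma), a 5.09-fold higher sigma than in untreated livers, and was higher in 4 of 4 livers by 0.43 to 3.12. Foxa2 rose by 1.26 (SE 0.289, adjusted p = 0.0455, limma) and was higher in 4 of 4 livers. Cebpa fell by 1.42 (SE 0.121, adjusted p = 0.0429, limma) and was lower in 4 of 4 livers by 1.18 to 1.43. These calls, 2 higher and 1 lower of 9, compare with 9.04% of all entries higher and 2.38% lower past the same test (1005 and 265). The median level of all entries was 2.86 with ATRi and 2.63 without, and centring each group on its median turned the split to 538 higher and 961 lower. Nr1i2 was at 5.62 with ATRi and 4.17 without, a difference of 1.45 that missed the threshold (SE 0.408, adjusted p = 0.0642, limma), as did that of 0.59 for Cebpb (SE 0.157, adjusted p = 0.0577, limma). Nr1h4 and Ppara differed by 0.37 and 0.35, Hnf4a by 0.08 and Foxa3 by 0.04, with adjusted p between 0.208 and 0.932 in limma. None of the 7 neutrophil markers passed (6 above 0, median 0.514), while 1 of 9 macrophage markers (median −0.280) and 2 of 5 B and plasma cell markers (median −0.823) fell, and their part was not tested. Centring on the median of all genes turns the sign of the Hnf4a difference (−0.15) and of the Foxa3 difference (−0.18). The calls depend on the spread of these 4 livers alone: with M545, M547 or M548 left out, with every observation at weight 1, or with the livers as deposited, 0 of 9 genes and 0 of all entries passed, while 3236, 2742, 2904, 1541 and 4116 entries had an unadjusted p under 0.05. Centring ended the Foxa2 call (adjusted p = 0.0515, limma), and plain empirical Bayes ended those of Foxa2 and Nr5a2 (0.0512 and 0.0585). Over all alternatives the adjusted p ranged from 0.0106 to 0.349 for Nr5a2, 0.0134 to 0.349 for Foxa2 and 0.0084 to 0.349 for Cebpa in limma. The Nr5a2 difference itself ranged from 1.91 to 2.84 over these alternatives. Without M546, in which Nr5a2, Foxa2 and Nr1i2 were lowest of the 4, 2686 entries passed.

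The same livers were set against 3 other groups, so these comparisons share the 4 livers and are not independent of each other. Against 3-month ATRi livers at 72 h, Nr5a2 rose by 2.80 (adjusted p = 0.0164, limma), Foxa2 by 1.64, Nr1i2 by 1.55, Cebpb by 0.97 and Cebpa by 0.94. Hnf4a fell by 0.39 (adjusted p = 0.0422, limma). These are 5 higher and 1 lower of 9, where 18.3% of all entries were higher and 9.96% lower (2040 and 1107, or 1433 and 2377 after centring). At weight 1 for every observation 0 of the 9 passed, and 7 of all 11119 entries. Hnf4a lost its call without M546, M547 or M548 (adjusted p = 0.0684, 0.156 and 0.105, limma), with the livers as deposited or with plain empirical Bayes (0.0593 and 0.0599). Nr1i2 lost its call without M547 or M548 (0.0583 and 0.0815) and with the livers as deposited (0.0641). Markers of neutrophils were higher in the same comparison in 7 of 7 cases (median 3.21, 7 past the test) and those of macrophages in 9 of 9 (median 1.52, 6 past the test), and their part was not tested. Hnf4a in the 4 livers lay between 7.63 and 7.84, all below the 3-month ATRi mean of 8.05.

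Against 12-month ATRi livers at 48 h, 6 of 9 genes rose and Cebpa fell by 1.19, where 19.4% of all entries were higher and 17.8% lower (2159 and 1975, or 1814 and 2749 after centring). The rises were 3.25 for Nr5a2, 2.56 for Foxa2, 1.92 for Nr1i2, 1.504 for Ppara, 1.25 for Cebpb and 0.81 for Nr1h4, with adjusted p between 0.00436 and 0.021 in limma. Hnf4a and Foxa3 differed by −0.05 and 0.41 and did not pass. Against 12-month livers at 0 h the same 7 genes passed in the same directions, where Nr5a2 rose by 3.31 and Cebpa fell by 1.699 (25.6% of all entries higher and 22.5% lower, or 2843 and 2504 entries, against 2136 and 4458 after centring). Neutrophil markers rose in 7 of 7 cases against 48 h (median 2.49) and macrophage markers in 8 of 9 (median 1.48). Against 0 h, 5 of 7 neutrophil and 5 of 9 macrophage markers rose and 1 macrophage marker fell. Their part in the calls was not tested. The 4 mice also contribute to that 0 h mean, which the test treats as independent. At weight 1 for every observation 4 of the 9 passed against 48 h and 1 of the 9 against 0 h. Of all 11119 entries 914 and 574 passed at that setting. Nr1h4 lost its call against 48 h without M547 (adjusted p = 0.066, limma), and against 0 h without M546, M547 or M548 (0.108, 0.158 and 0.0662), after centring (0.248), with the livers as deposited (0.141) and with plain empirical Bayes (0.0507).

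Whether ATRi acted differently at the 2 ages at 72 h was tested as the difference of the 2 ATRi differences. For Nr5a2 the ATRi difference was 2.35 at 12 months and −0.47 at 3 months, which are 2.82 apart (SE 0.787, adjusted p = 0.115, limma). For Cebpa it was −1.42 and −0.26, which are 1.16 apart with the opposite sign (−1.16, SE 0.171, adjusted p = 0.102, limma). Nr1i2, Foxa2, Cebpb, Ppara and Nr1h4 were 1.49, 1.10, 0.97, 0.96 and 0.84 apart, with adjusted p between 0.105 and 0.182 in limma. None of the 9 genes passed, as 0.00899% of all entries did (1 entry). Of the 9, 7 had an unadjusted p under 0.05, as did 2708 of all entries. Without M546 the count was 3 of 9 (Nr5a2, Foxa2 and Cebpa) and 1311 of all entries. A difference in the ATRi response of these genes between ages is therefore not shown at the threshold used with all 4 livers.

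The 12-month ATRi livers at 72 h stood apart from the rest: their highest correlation with another group over all entries was 0.962, against 0.981 to 0.994 for the other 8 groups. Median ATRi differences also varied with intron length in gene models (GENCODE M21). Its median was 0.013 in 170 genes without introns, −0.093 in 2598 genes with up to 10 kb, 0.030 in 4981 genes with 10 to 50 kb, 0.326 in 1495 genes with 50 to 100 kb and 0.497 in 1165 genes with more than 100 kb. In 3-month livers at 72 h the class above 100 kb had a median of −0.046. Nr5a2 has 112 kb of introns, and 30.5% of the genes in its class passed the test on the high side. M546, the liver lowest for Nr5a2, had a median difference of 0.232 in that class, against 0.483 to 0.593 in the other 3 livers. Nr1i2 has 43.9 kb, in a class where 5.42% of genes were higher by 1 or more. Foxa2 has only 1.72 kb, in a class where 2.46% were. Cebpa has none, and 1.76% of intronless genes were lower by 1 or more. Nr1h4 (77.0 kb), Ppara (64.0 kb) and Hnf4a (61.3 kb) lie in the class with a median of 0.326, where 14.3% were higher by 1 or more, and differed by 0.37, 0.35 and 0.08. The part of intron length in any of these differences was not tested.

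**Figure D3:**
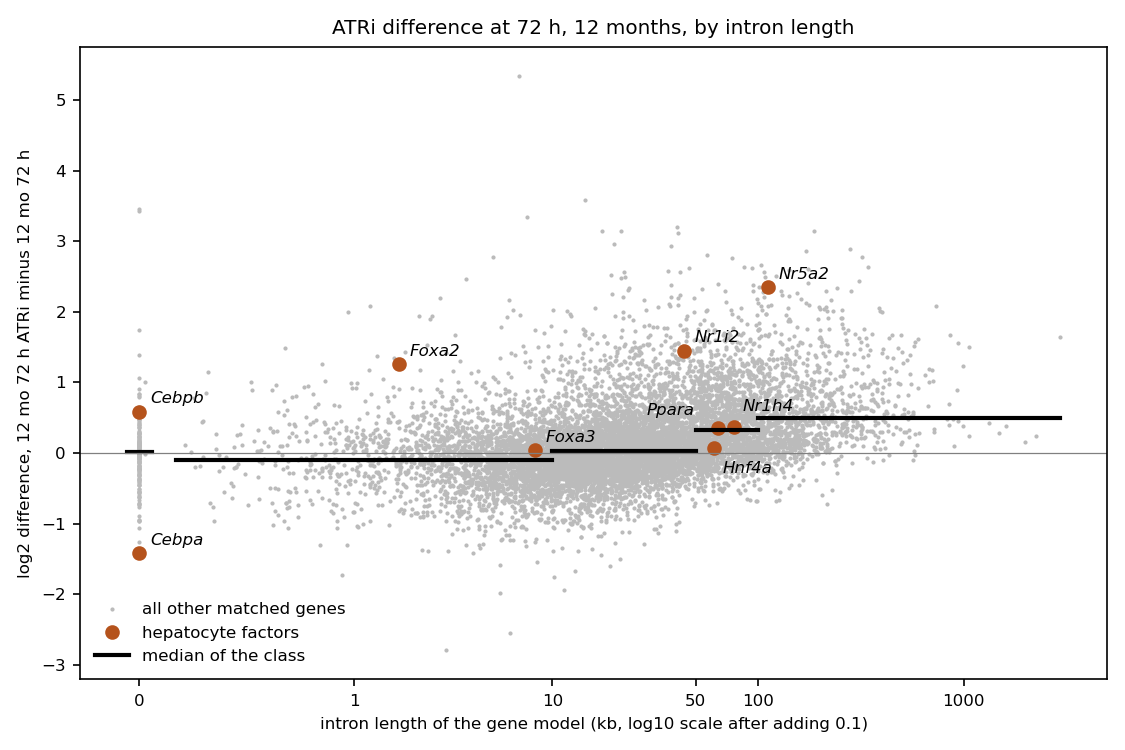
ATRi difference at 72 h in 12-month livers (log2, ATRi minus untreated, y axis) against intron length of the gene model (kb, log10 scale, x axis) for the matched genes (grey) with the 9 factors (brown) and the median of 5 length classes (black lines). Nr5a2, Nr1i2 and Foxa2 lie above their class medians of 0.497, 0.030 and −0.093, and Cebpa lies below its own of 0.013.

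The factors act with partners and cofactors, and 20 of 22 listed partners were measured. In 12-month livers at 72 h, 18 of 20 were above 0 for ATRi minus untreated, with a median of 0.704 against 0.080 over all entries, and 6 passed the test on the high side and 0 on the low side, against 9.04% and 2.38% of all entries. Ppargc1a, the coactivator PGC-1α, was at 3.41 with ATRi and 1.203 without (adjusted p = 0.0472, limma). Nrip1, the corepressor RIP140, was at 4.02 with ATRi and 2.05 without (0.0434). Ncoa2, a steroid receptor coactivator, was at 3.97 with ATRi and 2.46 without (0.0429), and Crebbp, a histone acetyltransferase, at 3.896 with ATRi and 2.57 without (0.0429). As with the factors, these calls were lost under the settings that called 0 of all entries. The same holds for every call of this comparison in the lists of other factors and of targets below. In 3-month livers at 72 h the partners had a median ATRi difference of −0.036 and 0 differed by 1. Before PH, 17 of 20 were lower at 12 than at 3 months, though none by 1 or more, with Nr0b2 (SHP, the corepressor induced by FXR) at 1.77 at 12 months and 2.54 at 3 months.

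Other transcription factors of the hepatocyte were measured for 42 of 51 listed genes. At 48 h against 0 h, 7 were lower by 1 or more and 0 higher in 3-month livers (median −0.296), where 297 of all entries were lower and 418 higher, with Nr2f2 (COUP-TFII) lower by 1.65, Bcl6 by 1.53 and Foxa1 by 1.49. In 12-month livers, where 5.12% of all entries differed by as much, 2 were lower, Nr1d1 (the clock repressor REV-ERBα) by 1.46 and Nr2f2 by 1.27. Under ATRi at 72 h in 12-month livers 6 of the 42 rose and 2 fell past the test, where 9.04% of all entries rose and 2.38% fell. Nfil3, a repressor of clock output genes, rose by 2.01, Zhx2, a repressor of fetal liver genes, by 1.87 and Foxo1, the forkhead factor restrained by insulin, by 1.77. Hhex, at 5.42 with ATRi and 7.14 without, did not pass (adjusted p = 0.141, limma). Foxa1, the third liver forkhead gene, was at 4.47 at 48 h in untreated 12-month livers and 3.74 in untreated 3-month livers. Its untreated 72 h difference from 0 h was −1.797 at 12 months and −1.705 at 3 months, where that of Foxa2 was 0.506 and −0.785. In 12-month ATRi livers at 72 h Foxa1 was at 2.27, against 5.03 at 0 h (−2.756, adjusted p = 0.00121, limma). Of all entries 22.5% were lower in that comparison, in which Foxa2 rose by 1.77.

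Lists of known targets were compared with the factors themselves. PPARα targets, of which 23 of 28 were measured, are set beside Ppara first. At 48 h against 0 h in 12-month livers, 21 of 23 targets were above 0 and 10 were higher by 1 or more (median 0.819, all entries −0.017, with 5.12% of all entries differing by 1), while Ppara differed by 0.06. Cyp4a14, a fatty acid hydroxylase, was higher by 5.85 and Acot1, an acyl-CoA thioesterase, by 3.17. At 0 h itself 23 of 23 targets were lower at 12 than at 3 months (7 by 1 or more, median −0.514), Cyp4a14 by 5.02, beside Ppara lower by 0.97, and these 0 h means enter both 48 h responses. In 3-month livers the targets had a median of −0.623 and Ppara was lower by 1.02. Their 48 h responses differed between ages with a median of 1.60, and 18 of 23 were apart by 1 or more (4.26% of all entries). ATRi at 48 h in 12-month livers had 21 of 23 targets below 0 and 6 lower by 1 or more (median −0.609, 0.576% of all entries), with Cyp4a10 lower by 2.98 and Pdk4, a kinase that restrains glucose oxidation by inhibiting pyruvate dehydrogenase, by 2.57, where Ppara was lower by 0.36. Over the 9 group means the correlation of Ppara with the median level of its targets was −0.227, a description over points that share mice. That median is taken over genes of unlike level and need not move as the targets do. Over the 8 means without the 12-month ATRi group at 72 h the correlation was 0.076.

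C/EBP targets, 26 of 33 measured, had a median level that ran with Cebpb (r = 0.877 over 9 group means, 0.729 over 8 without the 12-month ATRi group at 72 h), beside an r of −0.244 for Cebpa. The r for Cebpa was −0.171 over the 8 means. These r values describe group means and carry no test, and a median over genes of unlike level need not move as the targets do. Under ATRi at 72 h in 12-month livers 6 of the 26 rose and 1 fell, where 9.04% of all entries rose and 2.38% fell. Crp, C-reactive protein, rose by 2.25, Slc39a14, a zinc and iron importer of the acute phase, by 2.09 and Tat, tyrosine aminotransferase, by 1.95, each with adjusted p = 0.0429 in limma. These calls too were lost under the settings that called 0 of all entries. Crp also stands in the LRH-1 and FOXA lists, and Tat in the FOXA list. Before PH 12 of the 26 were above 0 and 14 below for 12 against 3 months (median −0.026), 5 being higher by 1 or more where 1.27% of all entries differed by as much. Among the 5, the acute phase genes Saa1 and Saa2 were higher by 2.57 and 1.72 at 12 than at 3 months.

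LRH-1 targets, 17 of 25 measured, had 4 rises and 0 falls past the test for ATRi at 72 h in 12-month livers (9.04% and 2.38% of all entries), with a median of 0.135 beside the rise of 2.35 in Nr5a2. Il1rn, the IL-1 receptor antagonist, rose by 1.695 and Scarb1, the HDL receptor, by 1.10. Cyp7a1, whose product sets the rate of bile acid production and a classical LRH-1 target, was at 5.43 with ATRi and 6.52 without and did not pass (adjusted p = 0.54, limma). Cyp7a1 was also lower by 3.66 at 48 h than at 0 h in untreated 12-month livers, at a nearly constant Nr5a2 level (a difference of 0.03). Over the 9 group means Nr5a2 and the median level of its targets, which need not move as the targets do, had an r of −0.099. Over the 8 means without the 12-month ATRi group at 72 h the r was 0.399.

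HNF4α targets, 28 of 36 measured, had 0 rises and 0 falls past the test for ATRi at 72 h in 12-month livers (median −0.160), beside the Hnf4a difference of 0.08. Against 3-month ATRi livers at 72 h, where Hnf4a fell, 13 of the 28 fell and 2 rose (median −0.524, all entries 0.048), where 9.96% of all entries fell and 18.3% rose. Of these, G6pc, glucose-6-phosphatase, fell by 2.43 and Slc2a2, the glucose transporter GLUT2, by 1.83, while Hpx, the haem carrier hemopexin, rose by 1.64. After centring, 2377 of all entries fell and 1433 rose in that comparison, and at weight 1 for every observation 7 passed. The Hnf4a call was itself lost in several settings, as given above. Without ATRi at 72 h, 21 of the 28 targets were also below 0 for 12 against 3 months (median −0.32, all entries −0.032). The Hnf4a difference there was −0.301. For ATRi at 72 h in 12-month livers, where 9.04% of all entries rose and 2.38% fell, 3 more lists were counted. FXR targets, 16 of 20 measured, had 2 rises and 0 falls, among them Sdc1, a proteoglycan, which rose by 1.56. FOXA targets, 19 of 22 measured, had 2 rises, Crp and Tat, both counted among the C/EBP targets too, and 0 falls (median −0.041). Foxa2 itself rose by 1.26. CAR and PXR targets, 26 of 29 measured, had 0 rises and 1 fall, of 1.04 in Cyp2c55, while Por, the reductase of the P450 enzymes, was at 6.37 with ATRi and 4.63 without (adjusted p = 0.0511, limma). Over the 9 group means the r with the median level of the targets was 0.632 for Nr1h4, 0.573 for Foxa3 and 0.403 for Hnf4a. It was 0.399 for Nr1i2 and 0.322 for Foxa2. Without the 12-month ATRi group at 72 h these r were 0.831, 0.606, 0.375, 0.229 and 0.174. A median level is taken over genes of unlike level and need not move as the genes do. The median level of CAR and PXR targets was 5.70 at 0 h and 4.43 at 48 h in 3-month livers. The median difference of the same genes there was 0.34. None of these r, nor those above for Ppara, Cebpa, Cebpb and Nr5a2, therefore describes how the targets themselves moved. No test compared a factor with the list of its targets.

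**Figure D4:**
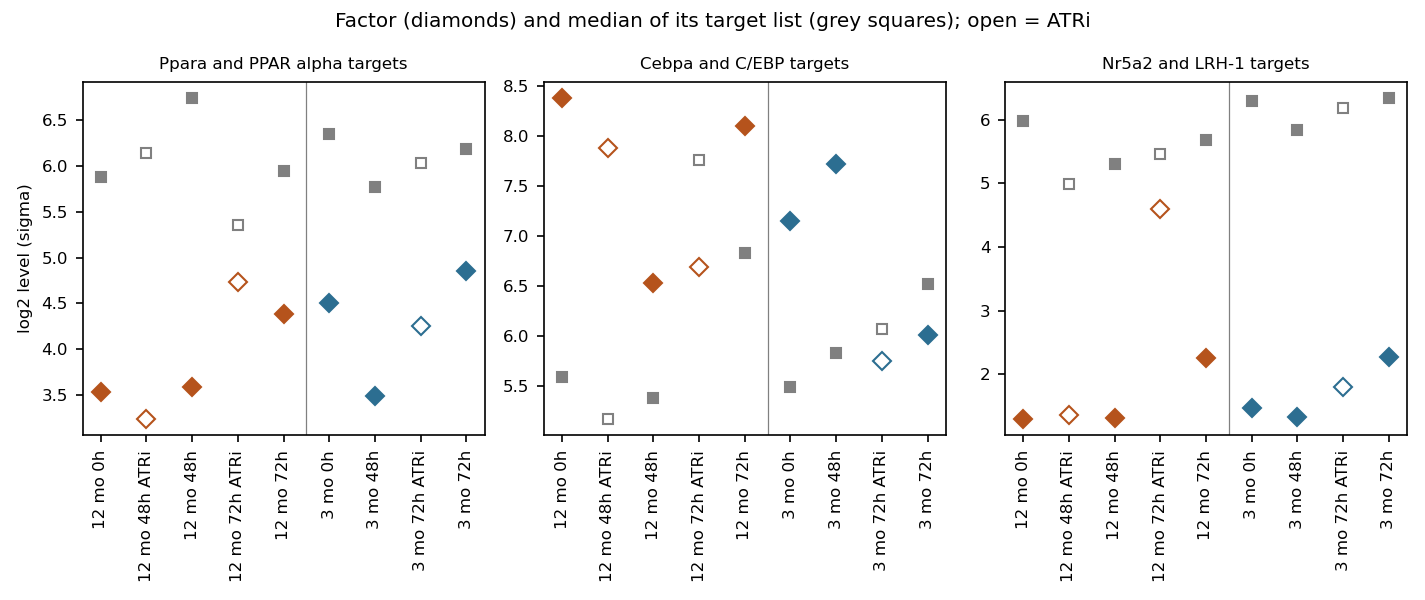
Level of Ppara, Cebpa and Nr5a2 (diamonds) and the median level of the listed targets of PPARα, C/EBP and LRH-1 (grey squares) in the 9 groups (x axis, mo for months), both as log2 of sigma (y axis), open where ATRi was given. The Nr5a2 diamond is at 4.60 in 12-month ATRi livers at 72 h and at 2.25 in untreated 12-month livers at 72 h. The median level of its targets is 5.47 and 5.68 in these groups, while the median of the targets' own differences is 0.135. A median over genes of unlike level need not move as the genes do, and diamonds are not to be compared with squares in height.

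Genes whose 9 group means ran most like those of a factor were looked up for the 6 factors whose means span 1 or more. Nr5a2 was closest to Reps2, Erc1 and Uvrag (r = 0.998 each, and 0.986 to 0.987 over the 8 means without the 12-month ATRi group at 72 h), all with long introns (223.4, 261.1 and 247.1 kb). Nr1i2 was closest to Atp9b, Epb41 and Ypel2 (r = 0.988 to 0.989, and 0.927 to 0.938 over 8 means). Foxa2 was closest to Daam1, Ube3a and Herc4 (r = 0.962 to 0.971), which have 62.2 to 153.2 kb of introns. Cebpa was closest to Engase, Atp6v1g1 and Klf16 (r = 0.906 to 0.922), with 4.8 to 7.5 kb. Cebpb ran with Dnajc3, Lrrc8a and Stat5a (r = 0.938 to 0.939), and Ppara with Fam160b1, Masp1 and Fam214a (r = 0.945 to 0.949). Among the factors themselves Nr1i2 and Nr5a2 were most alike (r = 0.959, but 0.708 over 8 means), then Nr1h4 and Ppara (0.912, and 0.892 over 8 means). Hnf4a and Cebpa ran against each other (−0.803, and −0.879 over 8 means). The 9 means of Hnf4a span only 0.518 and those of Nr1h4 0.83, both short of the span of 1 asked above. All r are over group means that share mice and processing and are given as descriptions.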

How the data were processed

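Polyadenylated RNA of mouse liver from 40 samples in 9 groups had been sequenced. The authors deposited 12 tables of levels as log2 of a value they call sigma, with positions in bins of 10000 bp. The build is GRCm38 (mm10) per the submitters' processing notes. The aligner, counting, strand, scaling and filters are not given in the sources used here. Depth is unknown, so no interval that needs it is given. Of the 11119 entries, 507 join several genes, and 10409 (93.6%) were matched to GENCODE M21 by symbol and chromosome. The members, lists and tests were chosen with earlier results of these data known.

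Groups follow the sample titles. Differences are between deposited log2 means. In 14 comparisons they were counted at 1 or more without a test. In 5 comparisons involving 12-month ATRi livers at 72 h, limma 3.58.1 (R 4.3.3) was used, with intensity trend, robust empirical Bayes and Benjamini-Hochberg adjustment over all entries. The deposited mean of that group is not the mean of its livers' log2 levels (median offset 0.088, but 0.434 for Nr5a2 and 0.336 for Nr1i2). The 4 livers were therefore shifted per gene to that deposited mean. The other means entered once each, with the mouse number as weight, and are assumed to vary like the 4 livers, which give 3 residual degrees of freedom. The fit was run on simulated data in which all groups were given the spread of the 4 livers. That run therefore does not test whether the other groups vary like them. Named genes are all members, up to 4 listed partners or targets with the largest difference, and the 3 genes most correlated with a member. Other genes in the text were chosen after their values were seen. Promoters are from RefSeq (GRCm38.p6), and protein sequences were not analysed here. Alternatives were another threshold, centring, a filter on mean level 1, other weights, no shift, a plain empirical Bayes and leaving out each liver. In comparisons without a test, centring took off the median difference of all entries. In limma, each liver and each mean was centred on its own median level. Figures used matplotlib 3.10.9 in Python 3.11.15.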

Additional observations from a re-analysis of the deposited data

How the results depend on the processing

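No paired analysis was possible because the mice of the 72 h groups appear at 0 h only within a deposited mean. With a threshold of 0.5 in place of 1, the number of the 9 genes that differed became 4 for 12 against 3 months at 0 h, 2 at 72 h, 4, 4 and 5 for 48 against 0 h, 72 against 0 h and 72 against 48 h at 3 months, and 3, 4 and 4 for the same at 12 months. It became 1 for ATRi at 72 h at 3 months, 3 for 3-month ATRi livers at 72 h against 0 h, 2 for 12-month ATRi livers at 48 h against 0 h, 5 for 12-month against 3-month ATRi livers at 72 h and 4 for the 48 h response between ages. The shares of all entries given above are at 1. Those at 0.5 are not given here, so the counts at 0.5 cannot be set against all entries. Centring on the median of all entries gave 1 for 48 against 0 h at 3 months, 1 for 72 against 0 h at 12 months and 1 for the 48 h response. It also added Nr5a2 (1.031) to the genes past 1 for 72 against 48 h at 12 months.

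For ATRi at 72 h at 12 months, where 3 genes passed, 0 passed with the livers as deposited, 0 at weight 1 for every observation, 1 with plain empirical Bayes (863 of all entries, against 1270) and 0 to 3 with a liver left out. At weight 1, 0, 4 and 1 passed against 3-month ATRi livers, 12-month ATRi livers at 48 h and 12-month livers at 0 h, where 6, 7 and 7 had. Of all 11119 entries 7, 914 and 574 passed at weight 1, where 3147, 4134 and 5347 had. For the difference in ATRi response between ages, 0 to 3 passed with a liver left out, against 0 with all 4. A filter on mean level changed no call of the 45 member values tested.

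Hnf4a turned to −0.145 for ATRi at 72 h and −0.095 against 0 h when centred. Foxa3 turned to −0.127 with the livers as deposited and −0.184 centred for ATRi at 72 h, with −0.107 to 0.183 when a liver was left out. Between ages Foxa3 turned to −0.118 and −0.168, with −0.098 to 0.192 without a liver, and against 0 h it was −0.154 to 0.136 without a liver. None of these values passed the test in any setting, and the cause was not tested. Depth being unknown, what it limits cannot be stated, and the spread rests on 4 livers.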
